A study of Homo sapiens with 4 samples.

Results

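The CADM and neural adhesion molecules are 7 genes of the immunoglobulin superfamily, namely CADM1, CADM2, CADM3, CADM4, NCAM1, NCAM2 and L1CAM, out of 20501 genes with a symbol on the array. Their 12 probes were found by the RefSeq transcript that the scanner files give for each probe. The genes were chosen by their family with signals of these same arrays in view, and in particular the difference between the peptides at 48 h was known. The values of that comparison, and of every comparison that uses the same arrays, are therefore given as a description without a test.

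CADM proteins (cell adhesion molecules, also known as nectin-like proteins) have extracellular immunoglobulin domains, a single membrane-spanning segment and a short cytoplasmic tail that binds 4.1-family and PDZ-domain scaffold proteins. They bind each other across cell contacts, in part between different members, and are known both from synapses and axon contacts and from the lateral membranes of epithelial cells. NCAM1 and NCAM2 hold neurons together by homophilic binding, and NCAM1 can carry polysialic acid, which weakens adhesion. L1CAM is a neuronal adhesion molecule that guides axons, signals with growth factor receptors and is shed from the surface by ADAM proteases.

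MCF-10A is a non-tumorigenic human mammary epithelial cell line. The cells were grown in MEBM with the SingleQuots supplements and cholera toxin, and RNA was taken 24 h or 48 h after addition of a stapled peptide at 10 µM, a short helix locked by a hydrocarbon bridge. One treatment is labelled stapled-peptide and the other non-specific stapled-peptide, which the labels also mark as control without saying which of the study's peptides, stERAP-2 or stERAP-5, each one is. The arrays are called stapled and non-specific after these labels. The comparison of the peptides was made to look for off-target effects in normal cells. Each of the 4 conditions has 1 single-colour Agilent array, and all 4 arrays lie on 1 slide. No untreated cells were analysed here, no comparison has a replicate, and precision is limited by this number of arrays.

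All levels below are quantile-normalized log2 signals of a probe, and each difference between peptides is non-specific stapled-peptide minus stapled-peptide. A log2 signal is a level of 1 probe and does not rank one gene against another. A probe was called well above background where the scanner software marked it so. Where it was dim on 1 of the arrays compared, the difference is a bound, computed against the lowest signal that was well above background on that array, or against the probe's own signal where that was higher. No difference is given where both were dim.

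The 48 h non-specific array stood apart from the other 3 over the whole set of probes. Over probes well above background on both arrays of a pair, the SD of the log2 differences was 1.40 to 1.43 for the pairs with this array and 0.30 to 0.32 for the others. The share of spots well above background ranged from 62.5% to 65.7% over the arrays, and no spot was saturated. The listed markers of basal mammary epithelial cells were well above background for 8 of 8 genes on every array, but the log2 of their summed signal was 15.86 to 15.91 on the other arrays and 8.16 on this one. Luminal markers were also measured for 7 of 7 genes throughout, with 14.90 to 14.98 against 12.70. Most of that sum is the keratin KRT18, from 14.79 to 12.45 at 48 h, while FOXA1, a luminal transcription factor, differed by 1.31 the other way and the median over the 7 genes was −0.15.

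Among neuronal markers, 3 or 4 of 10 genes were well above background on the other arrays and 10 of 10 on the 48 h non-specific array, with a summed log2 signal of 11.61 to 11.70 against 12.82. The neurofilament genes NEFL and NEFM were dim on the other 3 arrays and reached 11.15 and 11.93 on this one. Other genes of the same list were lower there, the tubulin TUBB3 from 11.22 to 7.17 and the microtubule protein MAP2 from 9.48 to 4.07, so that 6 of the 10 differed by over 2-fold upwards and 2 downwards at 48 h. Of all genes, 21.2% were over 2-fold higher in that comparison and 19.8% lower. Glial markers were measured for 1 of 5 genes on the other arrays and 2 of 5 here, where the glial factor SOX10 was dim, and their summed log2 signal was 6.09 to 6.25 against 5.73. Lymphoid markers had 7.23 to 7.55 against 6.37, with 3 or 4 of 5 genes measured against 2. Of 5 genes known from embryonic kidney cell lines, 2 or 3 were measured on each array, with a summed log2 signal of 9.57 to 9.64 against 14.41. That sum rests on CKB, from 7.17 to 13.30 at 48 h, LIN28B, from a dim 1.72 to 12.86, and HOXA9, from 9.18 to 12.06. At their brightest probes PAX2 and PHOX2A were dim on the 48 h non-specific array. PAX2 had −0.59 at that probe and 3.89 at its other one. The 48 h differences below are read on this same array, and the part of these lists in them was not tested. In RNA of a whole culture, fewer cells of a type and less RNA per cell cannot be told apart. With 1 array per condition, an effect of the peptide cannot be told apart from any other difference of that culture or its RNA.

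CADM3 had the largest measured difference of the family, where those of all CADM1 and NCAM1 probes with a value at 48 h are bounds whose full size is not known. CADM3, a brain-enriched nectin-like protein that also recruits 4.1-family proteins to contacts, has 1 probe, A_33_P3421923. Its level was 14.93 on the stapled and 14.31 on the non-specific array at 24 h, and 14.74 and 4.68 on these at 48 h. Before normalization these were signals of 33927 ± 3393, 21317 ± 2132, 25214 ± 2521 and 24.0 ± 3.60, where the error is the scanner software's own estimate for 1 spot. Thus 3 arrays lay close together near the upper end of the scale, and the fourth was far lower but still well above its background.

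At 48 h the CADM3 difference was −10.06, a 1065-fold lower signal with non-specific stapled-peptide, with an error of 0.26 from the spot signals alone. At 24 h it was −0.62 with an error of 0.20, in the same direction, and these arrays were also the highest and the lowest of the 3 similar ones. The SD of differences at 24 h was 0.32 over probes that, like CADM3, were well above background on both arrays, and 0.58 when probes bright on only 1 of them were included, so the CADM3 value was past the first and close to the second. Between 24 h and 48 h the level differed by −9.63 with non-specific stapled-peptide and by −0.19 with stapled-peptide. CADM3 is measured by a single spot on each array, and no other probe is there to set against it.

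The remaining members were near or below the detection limit on most arrays. The promoter of CADM3 is shown with that of CADM4, its low and even relative, because these paralogues are the members measured on all 4 arrays. Each run is the 250 bases before the RefSeq start of the gene (GRCh38.p14), CADM3 at chr1:159171365-159171614 on the plus strand and CADM4 at chr19:43639851-43640100 on the minus strand, written 5′ to 3′ with GC boxes (GGGCGG, either strand) in capitals.
CADM3: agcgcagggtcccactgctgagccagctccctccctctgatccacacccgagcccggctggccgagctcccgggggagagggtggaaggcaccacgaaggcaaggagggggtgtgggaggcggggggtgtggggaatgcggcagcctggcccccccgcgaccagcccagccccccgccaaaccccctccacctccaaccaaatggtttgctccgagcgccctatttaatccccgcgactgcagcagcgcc
CADM4: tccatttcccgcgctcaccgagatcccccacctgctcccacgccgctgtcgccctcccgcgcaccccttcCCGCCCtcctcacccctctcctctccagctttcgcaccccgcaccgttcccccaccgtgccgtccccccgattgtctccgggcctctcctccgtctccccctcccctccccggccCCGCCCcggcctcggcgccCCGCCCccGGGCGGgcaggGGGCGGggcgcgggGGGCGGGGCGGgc

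The CADM4 run holds 7 GC boxes, the last of which overlaps the one before it, and the CADM3 run holds none. Among 35116 RefSeq promoter windows of the same length, 42.6% hold at least 1 GC box. The GC content was 70.4% for CADM3 and 79.2% for CADM4, with 16 and 30 CpG dinucleotides, against a median of 58.0% and 11 over all windows. Neither run holds a TATAAA (10.72% of windows), a CCAAT (32.0%) or the AP-1 letters TGACTCA (4.2%) on either strand, and each holds 1 E-box of the form CANNTG (61.8%). These are letter matches in a window and do not show that a factor binds there.

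**Figure D1:**
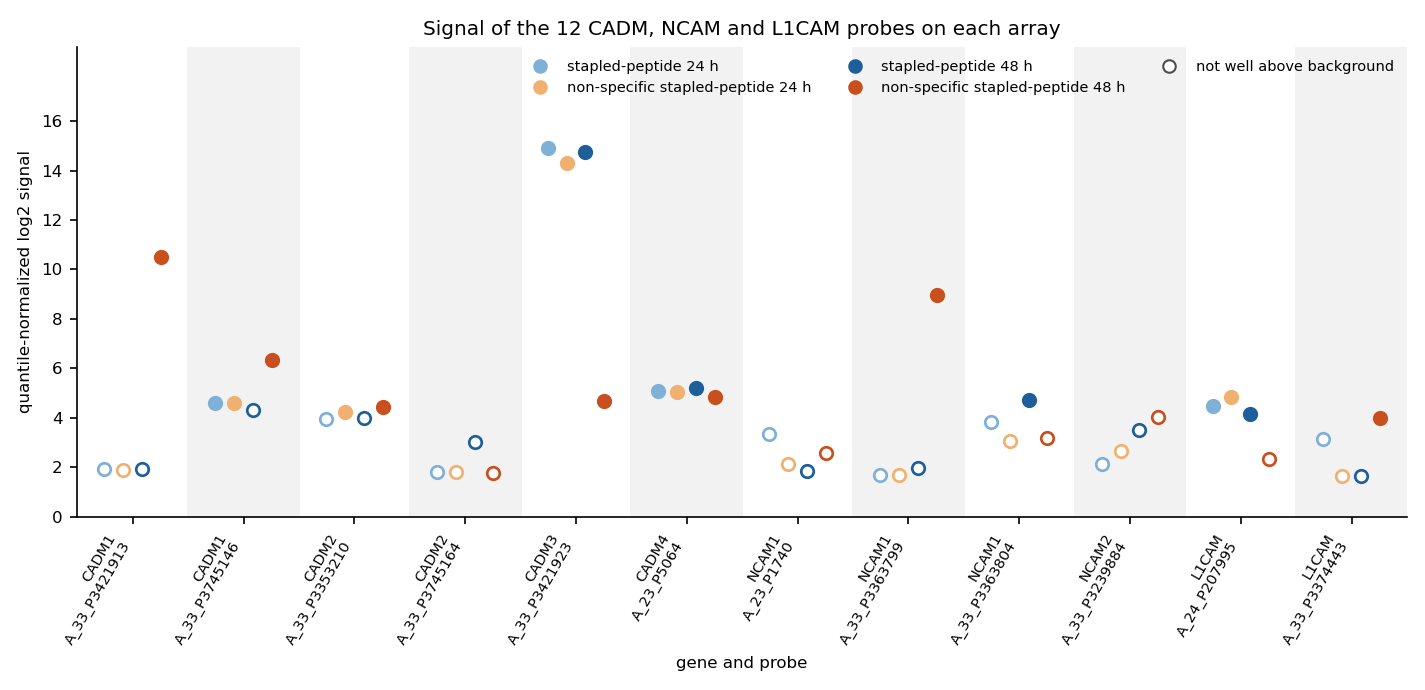
Quantile-normalized log2 signal of each of the 12 member probes (x axis, gene and probe) on the 4 arrays. Filled points are well above background and open points are not, and each point is 1 spot on 1 array. CADM3 lies between 14.31 and 14.93 on 3 arrays and at 4.68 on the 48 h non-specific array, where 1 probe each of CADM1 and NCAM1 reaches 10.50 and 8.97.

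CADM1, the best-known epithelial member of the family, which links cell contacts to 4.1 proteins and membrane-associated guanylate kinases, was higher on the array on which CADM3 was low. Its probe A_33_P3421913 had levels of 1.94 and 1.89 at 24 h and 1.90 on the 48 h stapled array, all dim, and 10.50 on the 48 h non-specific array. The signal there was 1498 ± 150, against 3.34 to 4.50 on the other arrays. The difference at 48 h was a bound of at least 6.62, or at least 98.2-fold, just under the 100-fold threshold that the study used. It depended on the processing, past 100-fold at 6.88 without normalization and at 8.60 without a bound, but 4.18 under normexp. Against the 24 h array of the same peptide it was at least 6.72, or 106-fold.

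The second CADM1 probe, A_33_P3745146, carries another transcript of the gene and was also highest there, by less. Its levels were 4.58, 4.58 and 4.33 in the same order of arrays, the last dim, and 6.34 on the 48 h non-specific array. The bound at 48 h was 2.01, or at least 4.03-fold, and the difference at 24 h was 0.007 with an error of 0.40. Both CADM1 probes therefore had their highest level on the same array, but the bounds of the pair differ by more than 4 on the log2 scale, and the sources used here do not give the probe sequences that would show what each one binds.

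CADM2, a member found mainly in brain and linked to myelinated axons, was at the edge of detection. Probe A_33_P3353210 had levels of 3.93 (dim), 4.23, 3.99 (dim) and 4.44 for the stapled and non-specific arrays at 24 h and then 48 h. The bounds for non-specific stapled-peptide were 0.28 at 24 h and 0.44 at 48 h. Both are smaller than the software's errors of 0.51 and 0.47, so no direction is read from them. Its other probe, A_33_P3745164, was dim on every array, with levels from 1.78 to 3.02.

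CADM4, which takes part in contacts between myelinating glia and axons and is also made by epithelia, was low and even. Its probe A_23_P5064 was well above background on all arrays, at 5.10 and 5.03 at 24 h and 5.19 and 4.82 at 48 h. The difference at 48 h was −0.36 with an error of 0.30, and that at 24 h was −0.07 with an error of 0.31. In contrast to CADM3, its level on the 48 h non-specific array was within 0.4 of the other arrays.

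The 3 probes of NCAM1 did not agree. NCAM1 is expressed in neurons, natural killer cells and several other tissues as isoforms that differ at the membrane-proximal end. Probe A_33_P3363799 was dim at 1.68, 1.69 and 1.94 on the 3 similar arrays and had 8.97 on the 48 h non-specific array, a signal of 544 ± 54.5 against 3.41 to 3.86. Its bound was 5.08 at 48 h, or at least 33.9-fold, and 5.19 against the 24 h array of the same peptide. At 48 h it was 5.42 without normalization, 7.03 without a bound and 3.05, no longer past 10-fold, under normexp.

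Probe A_33_P3363804, which has the highest mean level of the NCAM1 probes, went the other way. Its levels were 3.83, 3.06, 4.74 and 3.17, and it was well above background on the 48 h stapled array alone. The bound was −1.17, from a signal of 22.7 ± 3.93, and the level of this probe over the 3 similar arrays spanned 1.68. The last probe, A_23_P1740, was dim on all arrays with levels from 1.86 to 3.35. Each of these NCAM1 probes is tied to a different RefSeq transcript, and whether this bears on their disagreement was not tested. The direction for NCAM1 depends on the probe, and a mean over the probes with a value gave 1.96.

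NCAM2, a homophilic adhesion molecule of olfactory axons, was dim on all 4 arrays at its probe A_33_P3239884. Levels were 2.13 and 2.63 at 24 h and 3.49 and 4.02 at 48 h, and no difference is given.

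L1CAM was likewise near background, and its probes differed. Probe A_24_P207995 had 4.46 and 4.83 at 24 h, 4.15 on the 48 h stapled array and, dim, 2.34 on the 48 h non-specific one. Its difference was 0.36 with an error of 0.33 at 24 h and a bound of −0.58 at 48 h. Probe A_33_P3374443 showed the reverse picture, dim at 3.12, 1.63 and 1.62 and well above background at 3.99 on the 48 h non-specific array. That bound was 0.11, since the level was close to the detection limit of the array it was compared with.

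**Figure D2:**
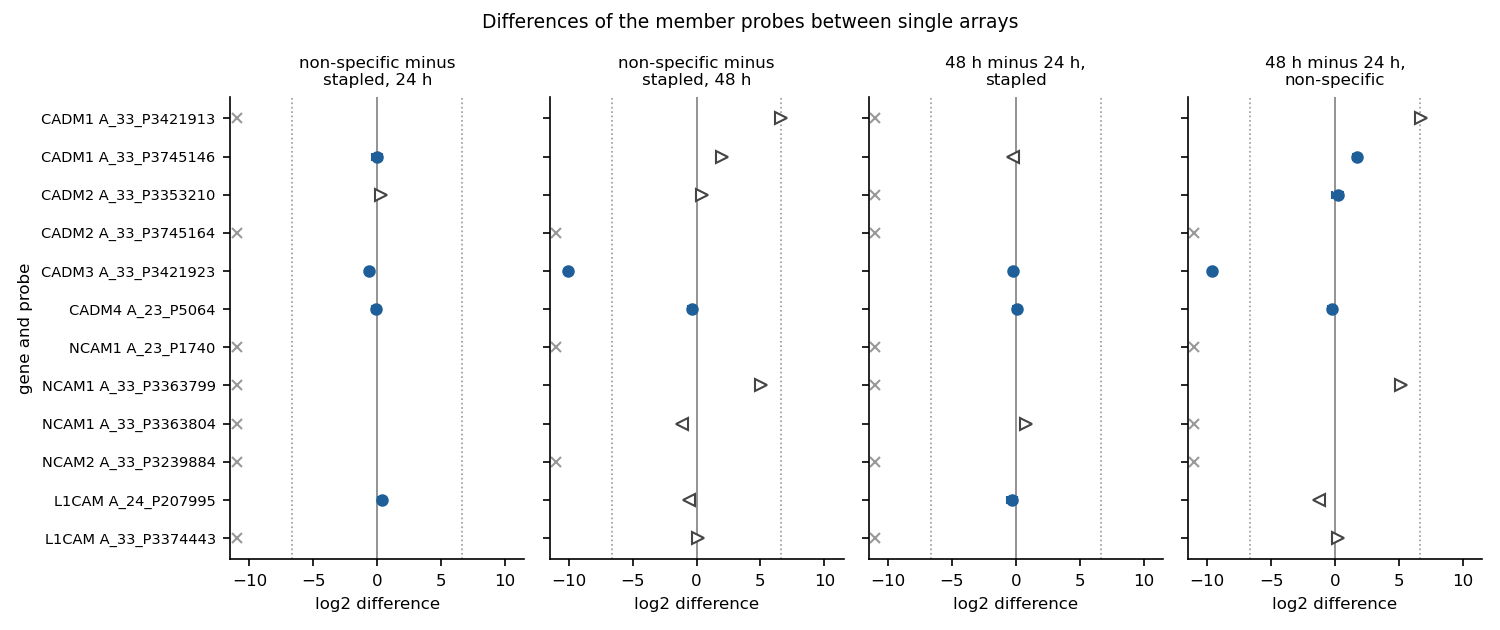
Log2 differences of the 12 member probes (y axis) between single arrays, for the peptides at 24 h and 48 h and for the times with each peptide. Points are measured differences with the scanner software's error, triangles are bounds that point away from zero, crosses at the left edge mark probes dim on both arrays, and dotted lines mark 100-fold. At 48 h CADM3 lies at −10.06, with CADM1 and NCAM1 bounds at 6.62 and 5.08 on the other side.

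Counted by gene at the probe with the highest mean log2 signal, 1 of the 6 members with a value at 48 h was over 100-fold lower with non-specific stapled-peptide (CADM3), and 0 were over 100-fold higher. Of 17112 genes, 0.707% were over 100-fold lower and 0.24% over 100-fold higher in that comparison. At 2-fold, 1 member was higher (CADM1) and 2 were lower (CADM3 and NCAM1), whereas 21.2% of all genes were over 2-fold higher and 19.8% lower. The median difference was −0.47 over the members and 0.03 over all genes. These counts describe a family chosen with this comparison known, and nothing is read from them.

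By probe, 9 of the 12 were well above background on at least 1 array, 2 on all 4 and 3 on none. Of the 9 with a value at 48 h, 1 was over 100-fold lower and 0 over 100-fold higher, where 0.416% and 0.138% of 35560 probes were so. The CADM1 and NCAM1 probes enter this count by their bounds, which are least sizes. At 10-fold the count was 2 probes higher, A_33_P3421913 of CADM1 and A_33_P3363799 of NCAM1, and 1 lower, where 1.99% of all probes were over 10-fold higher and 2.51% lower. The 9 probes had values because at least 1 of the arrays was bright, so a dim level on the other array already makes them differ.

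At 24 h, 0 of the 5 members with a value passed 100-fold or 2-fold in either direction. In that comparison 0.0% of 16228 genes were over 100-fold in either direction, 0.838% over 2-fold higher and 1.04% over 2-fold lower. The members ranged from −0.62 for CADM3 to 0.36 for L1CAM, and the median was 0.007 both over the members and over all genes.

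Over time with non-specific stapled-peptide, CADM3 was again the 1 member of 5 past 100-fold, as were 0.688% of 17297 genes lower and 0.243% higher. With stapled-peptide, 0 of 5 members passed 2-fold, against 0.923% of 16138 genes higher, 1.13% lower and 0.0% past 100-fold. The members then lay between −0.31 for L1CAM and 0.79 for NCAM1, the latter a bound. The comparison of the peptides at 48 h and that of the times with non-specific stapled-peptide share the array that stood apart, so their values are given side by side and are not 2 observations.

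Genes that act beside these adhesion molecules were taken from lists. The counts of each list at 48 h stand beside 21.2% of all genes over 2-fold higher and 19.8% lower. The nectins are close relatives of the CADM proteins and bind some of the same partners. Of 7 genes in this list, 6 had a value at 48 h, with 2 over 2-fold higher and 1 lower and a median of 0.62. AFDN, the scaffold that ties nectins to actin, differed by 1.29 at its brightest probe and by 0.36 to 1.88 over its 5 probes. NECTIN2 was 2.82-fold higher at its brightest probe but differed by −0.97 on the log2 scale at its other one. NECTIN4, a nectin of epithelial and mammary cells, differed by −2.29, from 8.43 to 6.14. NECTIN3 (0.65), PVR (0.59) and NECTIN1 (−0.21) stayed within 2-fold at the brightest probe, but another PVR probe differed by 1.26. CRTAM, the lymphocyte receptor that binds CADM1, was dim on all arrays at its brightest probe. At 24 h the 6 values lay between −0.19 and 0.11.

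In the L1 family, NRCAM differed by 1.64 at 48 h, from 5.70 to 7.34, and NFASC, from 4.25 to 5.35, was 2.14-fold higher. Their other probes with a value reached down to 0.47 and 0.005. CHL1 was dim on all arrays. Thus the relatives of L1CAM that could be measured were higher with non-specific stapled-peptide at 48 h by over 2-fold at the brightest probe, where L1CAM itself had a bound of −0.58 at its brightest probe and of 0.11 at the other one.

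The cytoplasmic partners, 4.1 proteins and membrane-associated guanylate kinases that bind CADM tails, and ankyrins that bind L1 proteins, all had a value at 48 h. Of the 12, 6 were over 2-fold higher and 2 lower, where 21.2% and 19.8% of all genes were so. The median was 1.07. At 24 h 0 passed 2-fold in either direction, where 0.838% of all genes were higher and 1.04% lower, and the median was 0.004. EPB41L3, a 4.1 protein known as a partner of CADM1, was dim with stapled-peptide at 3.71 and had 8.20 with non-specific stapled-peptide, a bound of 4.31 or 19.9-fold. MPP2 had a bound of 2.99 at its brightest probe and of 5.14 at another one.

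EPB41 had a bound of 2.07, and EPB41L2 (1.85), MPP1 (1.18) and ANK3 (1.96) were over 2-fold higher as measured differences. EPB41L1, from 10.98 to 9.62, differed by −1.37, and DLG1, from 9.37 to 8.01, by −1.36. The remaining partners were MPP3 (0.96), CASK (0.69), ANK2 (a bound of 0.46) and PALS2 (0.43). Probes of 1 gene spread widely in this list, for example from 0.68 to 2.46 for ANK3 and from −1.37 to 0.06 for EPB41L1.

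**Figure D3:**
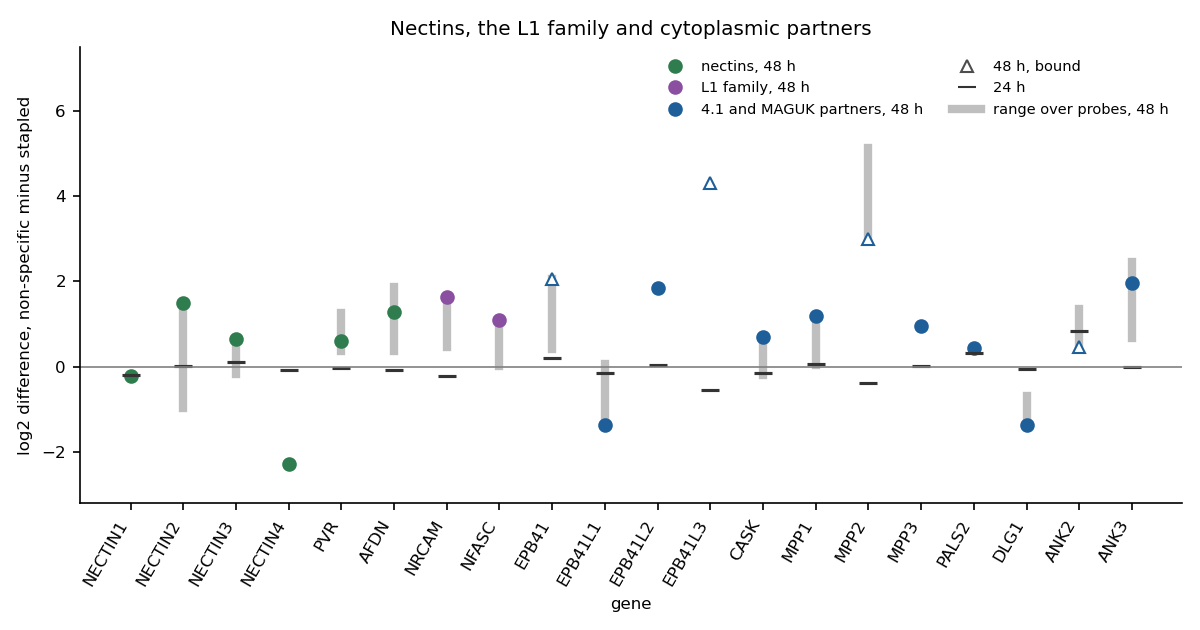
Log2 difference between the peptides (non-specific minus stapled) for nectins, the L1 family and the cytoplasmic partners with a value at 48 h, each at its probe with the highest mean level. Filled circles are measured differences and open triangles bounds at 48 h, short black bars are differences at 24 h, and grey bars span all probes of the gene at 48 h. EPB41L3 is highest at 4.31 and NECTIN4 lowest at −2.29, and the 24 h values lie between −0.54 and 0.83.

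Of 12 genes for NCAM and L1 signalling and processing, 9 had a value at 48 h, 4 over 2-fold higher and 3 lower. The 3 that passed 10-fold at the brightest probe were higher, where 1.99% of all probes were over 10-fold higher and 2.51% lower. The share by gene was not counted at that fold. FGFR2, a growth factor receptor that adhesion molecules can engage, was dim at 3.96 with stapled-peptide and had 8.85, a bound of 4.89. Its other probe had 1.78, under 10-fold. GFRA1, a GDNF co-receptor that also binds NCAM, had a bound of 3.58 at its brightest probe and 2.77, under 10-fold, at the other. The kinase FYN, which acts below NCAM1, differed by 3.68, from 8.19 to 11.87. GDNF, the remaining gene over 2-fold higher, had a bound of 1.86 at its brightest probe and 0.45 at another. GDNF and the 3 lower genes are named after their values were seen. NRP1, a semaphorin co-receptor that associates with L1CAM, differed by −3.13, from 10.87 to 7.74, and by −3.37, past 10-fold, against the 24 h array of the same peptide. ADAM10, one of the proteases that shed L1CAM, differed by −2.74 at its brightest probe and −2.52 at the other, and PRNP, the prion protein, by −1.91. The polysialic acid transferases ST8SIA2 and ST8SIA4 were dim on every array at their brightest probes. Among 8 contactins and related proteins, 2 of 4 with a value were over 2-fold higher and 1 lower, and among 14 IgLON and other neural adhesion molecules 2 of 10 were higher and 2 lower, with none past 10-fold. Named in the same way, these were CNTNAP2, CNTN6, IGLON5 and ROBO1, with bounds of 2.51, 1.98, 1.65 and 1.17, and CNTNAP1 (−1.66), ALCAM (−1.62) and NEGR1 (−1.30).

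Over these lists together, 18 of 43 genes with a value at 48 h were over 2-fold higher and 9 were lower, with a median of 0.69 against 0.03 over all genes. The share of all genes past 2-fold is that given above, 21.2% higher and 19.8% lower. Counting only genes measured on both arrays gave 8 higher and 9 lower, since 10 of the 18 higher genes were bounds.

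The genes whose levels over the 4 arrays lay closest to a member were sought among 17674 other genes by the Euclidean distance of mean-centred log2 levels. For CADM3 they were ARHGDIB (0.43), KRT6A (0.47) and HSPA1A (0.49), each between 11.61 and 13.17 on 3 arrays and dim on the fourth. For CADM1 at its brightest probe they were FAXC (0.04), KCNJ11 (0.07) and RBBP8 (0.08). CADM4 was closest to PCMTD2, YTHDF3 and BLOC1S6, each at 0.03, and CADM2 to ITM2C (0.02), PFKFB3 (0.04) and TAF11 (0.04).

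NCAM1 was closest to LGI2 (0.09), KIR2DL4 (0.26) and RXFP3 (0.29), and L1CAM to OR4C13 (0.02), LHX5 (0.16) and CAPSL (0.18), all levels near background. The likeness rests on 4 arrays of which 3 resemble each other, so a small distance mostly means a similar value on the fourth. For the bright CADM1 probe, picked after its values were seen, RFLNB, IGDCC3 and NID1 were closest, at 0.06 to 0.10.

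The genes on either side of each member on its chromosome were also read, a description added after the values were seen. Beside these counts, 21.2% of all genes were over 2-fold higher at 48 h and 19.8% lower. Around CADM3 on chromosome 1, 4 of 10 neighbours with a value were over 2-fold lower at 48 h and 0 higher, with a median of −0.78. Among them are ACKR1, an atypical chemokine receptor, from 11.42 to a dim level (a bound of −7.86), and IFI16, a DNA sensor, from 10.41 to 3.96 (−6.45). The antisense gene CADM3-AS1 differed by 0.23, so not all neighbours of CADM3 were low.

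CADM1 and NCAM1 lie on the same arm of chromosome 11 with 18 genes of the array between them. Of the 15 with a value at 48 h, 1 was over 2-fold higher and 3 lower, where 21.2% and 19.8% of all genes were so. The median over the 15 was −0.57. The gene higher than 2-fold was NCAM1-AS1, at 5.98 and 5.85 at 24 h and at 6.10 and 7.12 at 48 h, a difference of 1.03. The lower ones were NNMT, an enzyme that methylates nicotinamide, from 16.07 to 6.61 (−9.46), the transcription factor ZBTB16 (−5.61) and ANKK1 (−1.57). The 10 nearest neighbours of CADM1 held 0 genes over 2-fold higher and 1 lower, and those of NCAM1 held 2 higher and 3 lower, between a bound of −7.31 for the cytokine IL18 and 1.33 for PTS. None of these neighbours was higher by as much as the bright CADM1 and NCAM1 probes, but NNMT and IL18 were lower by more than the size of those bounds.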

How the data were processed

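RNA of MCF-10A cells was hybridized to 4 Agilent arrays, 1 per peptide and time. The deposited scanner files hold spot intensity values that the authors' Feature Extraction software had background-subtracted, with no normalization between arrays. The file headers name version 10.7.1.1, the labels 9.5. The study's methods state quantile normalization over all chips. Control spots and spots marked as outliers were left out, signals were held at 1 or more, log2 values were averaged by probe and quantile-normalized, which left 50590 of 50599 probes. The deposited table of the series holds linear means of the same signals, equal within 0.001 for all 12 member probes, with no column unused. RefSeq (GRCh38.p14) gave 28168 probes (55.7%) a symbol. Probe positions are not given, as the grid dates from an older genome release.

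The members, lists and thresholds were chosen with earlier results of these data known. No test was made, since each condition has 1 array. The genes named are all member probes, all genes of the nectin, L1 and partner lists, genes of the other lists past 10-fold at 48 h, the 3 nearest patterns of each member and defining markers. Genes of the other lists past 2-fold but not 10-fold at 48 h, and neighbours on the chromosome, were named after their values were seen. The polysialic acid transferases are named as well. The nearest patterns of the bright NCAM1 probe are not reported here. Counts are by gene at the probe with the highest mean log2 signal. The alternatives tried comprised the 75th percentile as scaling, no normalization, normexp with an offset of 50 (limma 3.58.1, R 4.3.3), no bound, both arrays well above background, outlier-marked spots kept, the deposited table, saturated spots left out, a 10-fold or 4-fold threshold, and means over probes. A value counted as moved when it shifted by more than 0.32, the SD of log2 differences at 24 h over probes well above background on both arrays. The steps were tested on simulated data in which only bright probes were changed, and only downwards. A rise from a dim level, as for the bright CADM1 and NCAM1 probes, was not simulated. Python 3.11.15, numpy 2.4.6, pandas 2.3.3 and matplotlib 3.10.9 were used.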

Additional observations from a re-analysis of the deposited data

Results flagged for a closer look

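L1CAM probe A_24_P207995 differed between the peptides in opposite directions at the 2 times. With non-specific stapled-peptide it was higher by 0.36 at 24 h and lower at 48 h, where the difference was a bound of −0.58. The value of 0.36 is close to its own spot error of 0.33 and to the SD of 0.32 over probes well above background on both 24 h arrays. That of −0.58 is a least size, since the probe was dim on the 48 h non-specific array, and was −1.81 without a bound. It is therefore not set against the spread of probes measured on both arrays. With single arrays the difference between the times was not tested. The other L1CAM probe was dim on both arrays at 24 h.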

How the results depend on the processing

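No paired analysis was possible because a single array stands for each condition. The member count over 100-fold at 48 h, 1 gene (CADM3), was the same under the 12 alternatives tried, and CADM3 ranged from −10.37 under scaling to the 75th percentile to −8.31 under normexp. This sameness is in part set by the counting rule. Unless the probe rule was changed, CADM1 was counted at A_33_P3745146. Its other probe passed 100-fold without normalization (6.88) and without a bound (8.60). The settings for outlier-marked spots, saturated spots and the deposited table hardly changed the member values. The counts of 0 at 24 h and over time with stapled-peptide were 0 throughout, also when the 48 h non-specific array was left out of the normalization. That setting, the probe with the highest mean of linear signals and the count of a gene when any probe passes were chosen after seeing the data. Under each of the latter, 2 members instead of 1 passed 100-fold over time with non-specific stapled-peptide, since CADM1 then enters with at least 6.72. The 3 members over 2-fold at 48 h became 1 under normexp and 1 when both arrays had to be well above background. Without a bound they became 4, as L1CAM then entered with −1.81. When any probe could pass they stayed 3, with NCAM1 counted both as higher and as lower. The count also stayed 3 with the mean over probes, but NCAM1 then counted as higher only (1.96). The 27 neighbour genes over 2-fold became 17 with both arrays well above background and 10 at 4-fold, both of which narrow the count by construction. Under normexp they were 19, 11 higher and 8 lower. Normexp adds an offset of 50 to every signal, which by itself narrows differences from dim levels. How much of the shifts under normexp comes from this offset was not tested.

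Scaling to the 75th percentile moved the median of all probes at 48 h from −0.02 to −0.14 and no normalization moved it to 0.20. Of the 27 probe differences, no called value reversed. Values moved for 14 under normexp, 9 without a bound, 6 without normalization and 3 under scaling, where CADM2 with non-specific stapled-peptide over time went from 0.21 to −0.23. No member spot was marked as an outlier and no spot was saturated, so leaving out saturated spots tested nothing. Member spots were marked well above background from a signal of 14.3 upwards and dim up to 17.3, and 7 of the 12 member probes were well above background on at most 1 array.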
